A study of Mus musculus with 4 samples.

Results

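Domains were defined as stretches of 50 kb or longer that lay within broad regions of histone H3 lysine 36 trimethylation (H3K36me3) in both mouse strains of the study. The overlapping or touching broad regions of each strain were merged, the merged sets were intersected, and the autosomal segments that reached 50 kb were kept. The members were thus chosen by the called positions and lengths of broad regions in these samples. Of 29905 autosomal segments shared by the strains, 1368 met this rule, which is 4.57% of the segments and 30.4% of the shared length. The study profiled H3K36me3 by ChIP-seq in spermatocytes of C57BL/6J mice (B6) and of B6.Cg-Prdm9<tm1.1Kpgn>/Kpgn mice (KI), both at 14 days post partum (dpp), to learn where the methyltransferase PRDM9 places this mark. The KI strain has the B6 genome except for the zinc finger exon of Prdm9, which came from a castaneus mouse. The titles name H3K36me3, whereas the antibody tag reads H3K36me6, and the inputs are labelled 15 dpp. The authors merged 2 replicates per strain before peak calling, so that each strain has 1 pooled set of peaks, differences between the strains have no replicate error, and no test between them was made. The files hold positions without heights or read counts. Per the methods of the study, more reads were aligned for KI than for B6, and the part of depth in any difference between the strains was not tested.

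H3K36me3 is written along the bodies of transcribed genes by SETD2, which travels with elongating RNA polymerase II, and the mark is depleted at active promoters. In prophase spermatocytes PRDM9 adds the same mark, together with H3K4me3, on nucleosomes beside its binding sites at recombination hotspots. A list of broad regions therefore follows gene bodies, and the narrow (refined) peaks called within these regions mark local summits.

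Of the 15 longest domains, 2 held a B6 refined peak that overlapped a KI refined peak. These peaks are printed first because they show sequence that lies in a refined peak of both strains. Both lie in introns on the forward strand of mm9, and capitals mark the bases common to the B6 and the KI peak.
Thada intron, chr17:84860614-84860913: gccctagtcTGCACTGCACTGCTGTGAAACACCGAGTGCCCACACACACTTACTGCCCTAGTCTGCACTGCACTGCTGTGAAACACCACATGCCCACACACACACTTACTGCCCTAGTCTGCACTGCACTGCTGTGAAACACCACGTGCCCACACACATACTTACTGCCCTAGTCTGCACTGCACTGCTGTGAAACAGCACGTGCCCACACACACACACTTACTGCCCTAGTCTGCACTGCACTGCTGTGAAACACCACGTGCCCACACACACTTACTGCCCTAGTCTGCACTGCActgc
Dnajc1 intron, chr2:18195287-18195586: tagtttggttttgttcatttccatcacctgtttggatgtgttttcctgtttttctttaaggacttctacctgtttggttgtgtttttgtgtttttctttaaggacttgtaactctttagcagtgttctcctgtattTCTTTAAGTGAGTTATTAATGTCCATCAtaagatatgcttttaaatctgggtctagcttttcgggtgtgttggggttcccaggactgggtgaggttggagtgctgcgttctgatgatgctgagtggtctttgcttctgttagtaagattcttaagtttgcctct
In the Thada intron the whole B6 peak of 287 bp lay inside the KI peak of 367 bp, 1.09 kb from the domain edge. The unit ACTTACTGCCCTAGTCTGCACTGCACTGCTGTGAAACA, 38 bases long, occurred in 4 exact copies in this window, so the summit sits on a tandem repeat. In the Dnajc1 intron the peaks of 224 bp (B6) and 284 bp (KI) shared only 28 bp, 60.9 kb from the nearer edge. There the right end of the KI peak met the left end of the B6 peak, so a common summit is not shown. These 28 bases occurred at 1 place in mm9.

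The domains measured 50 to 273.5 kb with a median of 68.5 kb, against a median of 4.5 kb for all shared autosomal segments. Together they covered 104.667 Mb, which is 4.23% of the autosomes. Domains of 75 kb or longer numbered 526, 217 reached 100 kb, 38 reached 150 kb and 7 reached 200 kb. The rule fixed the lower end of this range. Just inside it, 25 segments measured exactly 50 kb, among them those in Med13l (a Mediator kinase module subunit), Pde3b (a cyclic nucleotide phosphodiesterase) and B4galt5 (a galactosyltransferase). Just outside it, 26 segments measured 49.5 kb, among them those over Dclre1c with Suv39h2 (the Artemis nuclease and an H3K9 methyltransferase), Suv420h1 (an H4K20 methyltransferase) and Atp6v1h (a proton pump subunit).

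Thada, whose human counterpart is rearranged in thyroid adenomas, held the longest domain (chr17:84588501-84862000). It measured 273.5 kb and covered 98.7% of the gene. The B6 region there was 273.5 kb and the KI region 274 kb long. The second domain (chr2:17987001-18256500) measured 269.5 kb over Mllt10, a cofactor of the H3K79 methyltransferase DOT1L, and Dnajc1, a J-domain protein of the endoplasmic reticulum. These genes face each other and overlap at their 3′ ends. In B6 the region went on into Dnajc1 to a length of 326.5 kb, whereas in KI it ended at 270 kb. The third measured 248 kb over Rabgap1, a GTPase-activating protein for Rab proteins, and Strbp, which encodes a spermatid RNA-binding protein, again a facing pair.

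Single genes held most of the next domains. In Ccdc46, a centrosomal protein gene of 435.4 kb, a domain of 223.5 kb had the same edges in both strains. Mycbp2, a very large ubiquitin ligase, held 221 kb, and Eif4g3, a scaffold of translation initiation, held 217 kb with 99.5% of the gene inside. A facing pair, AU040320 and Zmym4, shared 211 kb. Clec16a, linked to endosomal traffic and mitophagy, held 199 kb, and Mapkap1, a subunit of mTOR complex 2, held 194 kb. The facing genes Cspp1, a spindle pole protein, and Arfgef1, an exchange factor for Arf GTPases, shared 190.5 kb with identical edges in both strains.

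The remaining 5 of the 15 longest measured 172.5 to 189.5 kb. They covered the deubiquitinase gene Usp34 together with Ahsa2 (189.5 kb), the myosin gene Myo9a (181.5 kb), the condensin subunit gene Ncapg with Lcorl (178.5 kb), Ralgapa1, a subunit of the Ral GTPase-activating complex (176.5 kb), and Ptk2, the focal adhesion kinase gene (172.5 kb). Domains of this length thus followed either 1 long gene or 2 genes that end next to each other.

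**Figure D1:**
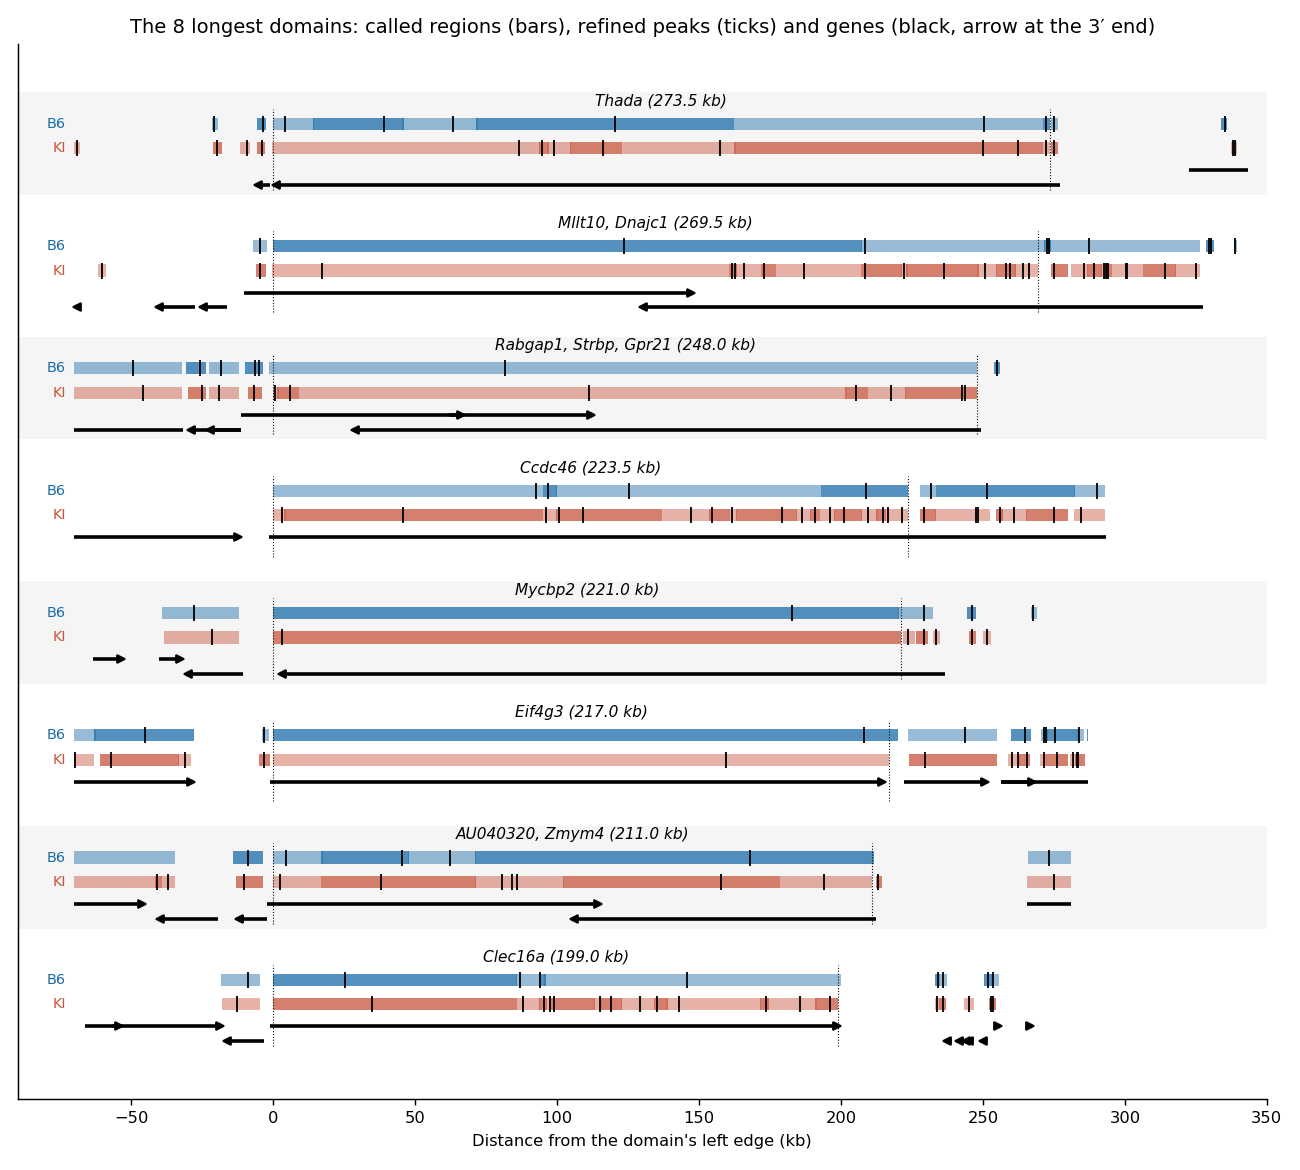
Map of the 8 longest domains, in kb from the left edge of each domain (dotted lines mark its edges). Bars are called broad regions in B6 (blue) and KI (red), whose shades alternate only to separate neighbouring calls, ticks are refined peaks, and black lines are protein-coding genes with the arrow at the 3′ end (upper row forward, lower row reverse strand). The domains over Mllt10 with Dnajc1, Rabgap1 with Strbp, and AU040320 with Zmym4 each span a pair of facing genes.

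The strains were alike in where these domains ended at most edges, and B6 reached further where they were not. Of 2736 edges, 869 (31.8%) had the same position in B6 and KI, and 64.2% lay within 1 kb of each other. Edges further apart than 10 kb numbered 505. The B6 region went further at 1503 edges, with a median of 2.0 kb, and the KI region at 364 edges, with a median of 0.5 kb. Summed over edges this came to 22.7 Mb for B6 and 0.938 Mb for KI. Taken alone, B6 had 1874 regions of 50 kb or longer, of which 70.8% held a domain, and KI had 1419, of which 96.4% held one. The length of the shared segment was therefore set mainly by the KI calls.

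The greatest edge differences were found where 1 long B6 region met several KI regions. In Ranbp17, an exportin family gene of 302.0 kb, the B6 region measured 303 kb and the KI calls left 3 domains of 80.5, 56 and 64 kb. Gphn, which encodes the synaptic scaffold and molybdenum cofactor enzyme gephyrin, had a B6 region of 310.5 kb against KI regions of 96.5 and 68.5 kb. The Fer kinase gene had 264.5 kb in B6 and KI regions of 72.5 and 59 kb, and the cohesin subunit gene Stag1 had 316 kb in B6 and KI regions of 129.5 and 90.5 kb. Among markers of other cell types, 7 of 9 Sertoli cell markers had more of their length in B6 than in KI regions and 1 had more in KI, against 30.6% and 17.6% of all autosomal protein-coding genes. Their median coverage was 29.7% in B6 and 0% in KI, with a range of 0% to 71.7% in B6 and 0% to 8.49% in KI, and Dhh was at 0 in both strains. Leydig cell markers had 1 of 6 higher in each strain, and peritubular and vascular markers had 1 of 4 higher in B6 and 2 in KI, with medians of 1.56% and 4.15%. None of the Sertoli markers overlapped a domain, and of all 21418 autosomal protein-coding genes 1800 did. The part of other cells in the edge differences was not tested.

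**Figure D2:**
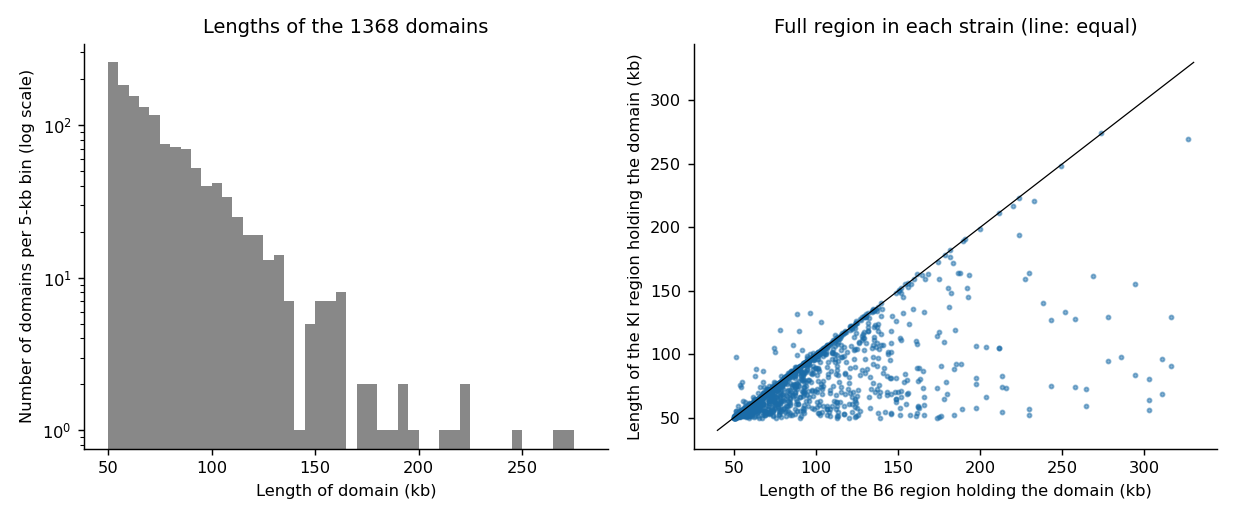
Left, number of domains per 5-kb bin of length (log scale). Right, length of the whole B6 region against the whole KI region that holds each domain, with 1 point per domain. Most points lie on the line of equal length or below it, where the B6 region is longer.

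Domains were also called in fewer pieces in B6. In B6, 953 domains (69.7%) were called as 1 region, with at most 7 regions in a domain, and in KI 469 (34.3%) were called as 1 region, with at most 15. Ccdc46 had 4 called regions in B6 and 15 in KI, and Clec16a had 4 and 13. Usp34, Eif4g3 and Ptk2 were called as 1 region in both strains.

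Nearly all domain sequence was genic. Protein-coding genes covered 95.4% of domain bases and 38.4% of autosomal bases. Shorter shared segments were much alike, with 91.7% at 20 to 50 kb, 86.7% at 5 to 20 kb and 80.7% under 5 kb. A protein-coding gene overlapped 1363 domains (99.6%), and in 1349 (98.6%) a single gene filled at least 50% of the domain. One gene was overlapped in 917 domains, 2 in 390, 3 in 51 and 4 or more in 5. The gene that filled most of a domain is called its main gene here. There were 1300 different main genes, and 57 held more than 1 domain. Vps13b (a lipid transfer protein), Dennd1a (a Rab exchange factor), Scaper, Nbas (a tethering factor for Golgi to endoplasmic reticulum transport) and Ranbp17 each held 3. Gm20388 also had 3, but this annotation is 4434.9 kb long, and its domains lie over Banp, Fanca with Zfp276, and Nup133.

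Domain edges lay inside genes on the 5′ side and mostly past their ends on the 3′ side. The edge on the 5′ side lay inside the main gene in 98.6% of the 1363 domains with a gene, at a median of 2829 bp from the annotated start and an upper quartile of 28246 bp. It was within 5 kb of the start in 53.2%, and in the 917 domains with 1 gene the median was 5126 bp. The edge on the 3′ side lay beyond the annotated end in 79.8%, at a median of 3309 bp past it. For the 917 domains with 1 gene these values were 74.2% and 2355 bp, with a lower quartile of -231 bp (inside the gene). Among the 1157 main genes of 50 kb or longer, a broad region covered the start itself in 4.06% (B6) and 3.89% (KI). At 5 kb into the gene the shares were 92.7% and 87.6%, and at the 3′ end they were 97.1% and 95.9%. At 5 kb past the end they had come down to 55.4% and 50.3%. The 1386 genes of that length that were marked in both strains without being a main gene had the same low share at the start (3.61% and 3.10%) but lower shares at 5 kb inside (61.8% and 51.8%). The domain rule requires long unbroken coverage, so this last difference follows from how the genes were chosen.

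**Figure D3:**
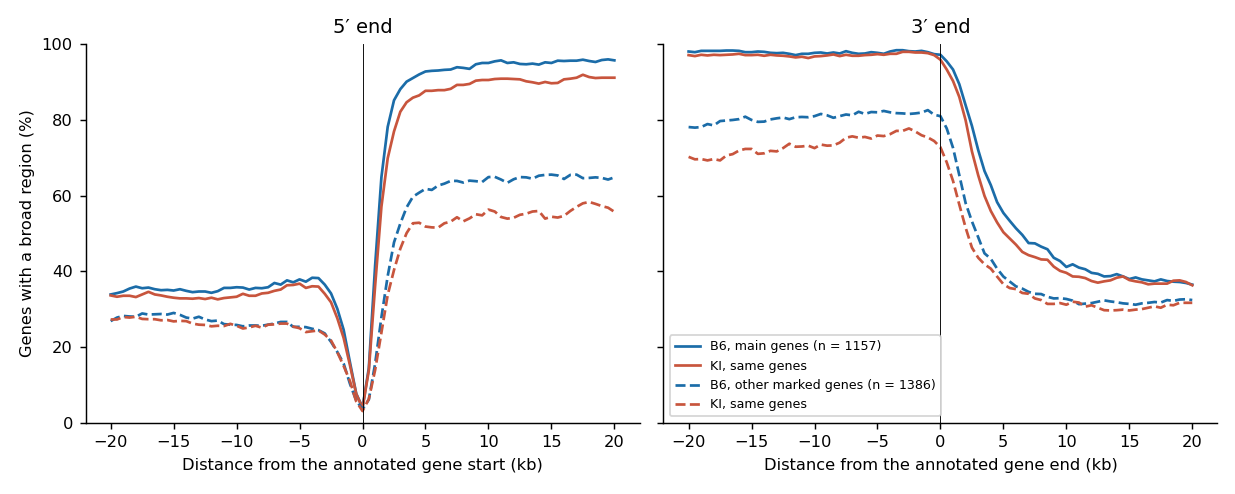
Percent of genes with a broad region at each distance from the annotated start (left) and end (right), in 500-bp steps. Solid lines are main genes of domains (n = 1157), dashed lines are other marked genes of 50 kb or longer (n = 1386), blue is B6 and red is KI. Coverage in main genes goes from about 4% at the start to 92.7% (B6) and 87.6% (KI) at 5 kb.

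Neighbouring genes that shared a domain over most of their length usually faced each other. Neighbouring, non-nested pairs with at least 50% of each gene in the same domain numbered 234, of which 204 (87.2%) were convergent, 26 tandem and 4 divergent. Among all 20439 autosomal neighbours the shares were 24.2% convergent, 51.5% tandem and 24.2% divergent. A convergent pair of this kind was present in 204 domains (14.9%), whereas 390, 51 and 5 domains overlapped 2, 3 and 4 or more genes to any extent. In 104 of these 204 domains both edges lay within 5 kb inside the outer gene starts, so that 1 domain ran from start to start. Over both edges of all 204 the median distance from the outer gene start was 1353 bp. When broad regions up to 1000 bp apart were first merged, the convergent share was 62.5%.

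The same broad regions gave a like order of orientations without the length rule. Of neighbours with at least 50% of each gene in shared regions, 76.1% of 1226 convergent pairs were joined by 1 shared segment, against 11.3% of 1975 tandem pairs and 1.17% of 1368 divergent pairs. With a gap of up to 2 kb between the genes these shares were 98.3%, 39.2% and 1.96%, and with a gap of 2 to 10 kb they were 71.0%, 7.49% and 0%. Where genes do not overlap, a segment that joins a tandem or divergent pair must run through a gene start. A convergent pair needs none. Broad regions covered the start in 4.06% (B6) and 3.89% (KI) of main genes of 50 kb or longer. The order of orientations and the low coverage of starts are therefore not separate results.

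**Figure D4:**
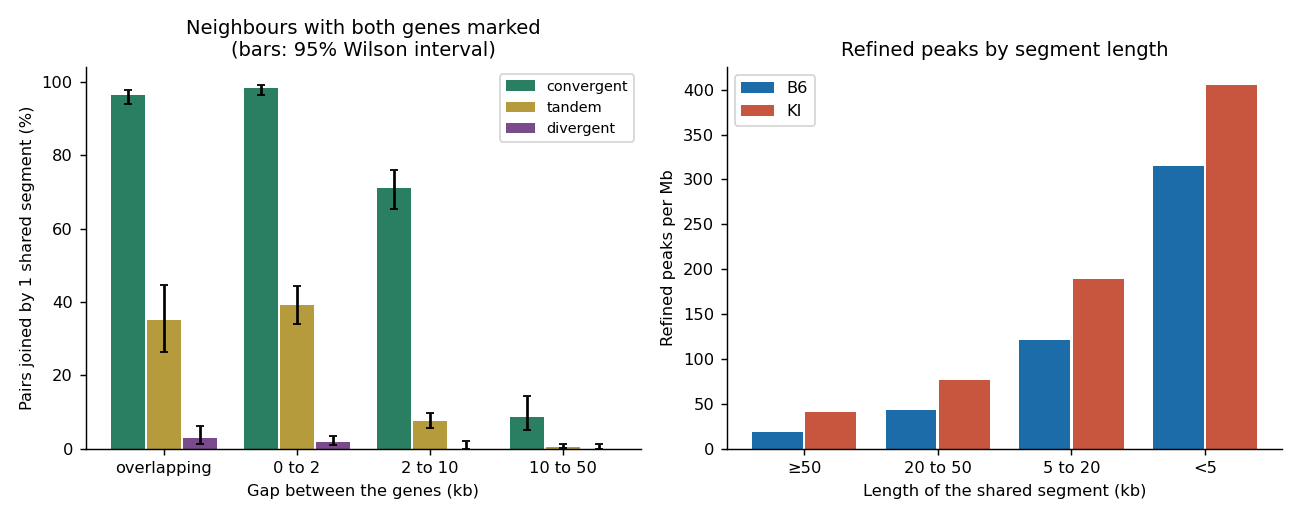
Left, percent of neighbouring marked gene pairs joined by 1 shared segment, by orientation and by gap between the genes, with 95% Wilson intervals that cover counting error only. Right, refined peaks per Mb of shared segment in B6 and KI by segment length. Convergent pairs are joined in 98.3% of cases at gaps of up to 2 kb, and the domains (50 kb or longer) hold 18.4 (B6) and 40.9 (KI) refined peaks per Mb.

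Gene starts were rare in domains. The annotated starts of 133 protein-coding genes lay in 114 domains (8.33%), which is 1.27 starts per Mb against 8.66 per Mb of the autosomes. Shared segments of 20 to 50 kb, 5 to 20 kb and under 5 kb had 2.51, 4.97 and 2.74 starts per Mb. Of these segments 7.45%, 4.48% and 0.657% held a start. A density of starts below that of the autosomes was thus common to all lengths of shared segment. With broad regions up to 1000 bp apart merged, 15.6% of domains held a start. Of the 133 starts, 72 lay within another protein-coding gene. Examples are the chain Ecm2, Aspn, Omd and Ogn, extracellular matrix genes that lie inside the centromere protein gene Cenpp on the other strand in a domain of 164 kb. Others are Gpr21 (an orphan receptor) in Strbp, Angptl7 in Mtor, Evi2a and Evi2b in Nf1, Htr2b (a serotonin receptor) in Psmd1, and Cxcr6 (a chemokine receptor) in Fyco1. Genes nested in another gene and lying in domains over at least 50% of their extent numbered 76, and 60 of them were on the strand opposite to the host. Without strand in these data, coverage of a nested gene cannot be told apart from coverage of its host.

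The other 61 starts lay outside other genes, 17 of them within 1 kb of a domain edge and 34 over 5 kb from both edges. Among the tandem pairs, Golph3l (a Golgi phosphoprotein family member) started 1.287 kb after Hormad1 (a meiotic axis protein), 29.4 kb inside the domain. The chemokine gene Ccl5, the chloride channel gene Clcn1 and Il18bp, which encodes an interleukin-18 binding protein, also started over 5 kb inside domains that extend over their neighbours. Of the 26 tandem pairs, 5 joined 2 annotations of the same symbol (Atf7, Atf7ip, Slc38a9, Srcap and 9930021J03Rik). The 4 divergent pairs were D430020J02Rik with Ncapg2, Qtrtd1 with 2610015P09Rik, Ccdc76 with Sass6, and Noc4l with Ddx51, and the first 3 overlap by 19.6 to 37.0 kb. The names in this paragraph and the preceding one were chosen after their values were seen.

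In 5 domains no protein-coding gene of the annotation was overlapped. For 3 of them a later gene set lists one between the same neighbouring genes. On chromosome 13 domains of 112 kb and 50.5 kb lay to the left of Gcnt4. In the RefSeq gene order of GRCm38.p6 the nearest protein-coding gene on that side of Gcnt4 is Ankrd31, a meiotic gene that acts in double-strand break formation. On chromosome 9 a domain of 56.5 kb lay between Abhd5, 365.9 kb away, and D9Ertd402e (Tcaim). The only protein-coding gene in RefSeq between them is Topaz1, a germ cell gene needed for male meiosis, besides entries of other types. Positions were not mapped between the assemblies, so overlap of these domains with Ankrd31 or Topaz1 was not tested. On chromosome 2 a domain of 71.5 kb lay on the noncoding gene Ppp4r1l-ps. On chromosome 10 a domain of 74.5 kb lay between D10Wsu102e and Aldh1l2, where RefSeq lists 1 pseudogene, Gm8270, and no protein-coding gene.

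The 112-kb domain had the same edges in both strains, was called as 1 region in each and held 1 refined peak per strain. The central 300 bases of these peaks are printed on the forward strand of mm9, with CG dinucleotides in capitals, because they show the refined peak of each strain in a domain without an annotated gene.
B6 peak, chr13:97602060-97602359: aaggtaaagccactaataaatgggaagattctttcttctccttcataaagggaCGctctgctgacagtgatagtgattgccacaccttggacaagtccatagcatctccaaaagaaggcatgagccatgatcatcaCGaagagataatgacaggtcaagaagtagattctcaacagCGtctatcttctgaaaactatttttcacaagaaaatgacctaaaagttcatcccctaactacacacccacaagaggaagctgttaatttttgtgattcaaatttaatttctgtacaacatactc
KI peak, chr13:97603734-97604033: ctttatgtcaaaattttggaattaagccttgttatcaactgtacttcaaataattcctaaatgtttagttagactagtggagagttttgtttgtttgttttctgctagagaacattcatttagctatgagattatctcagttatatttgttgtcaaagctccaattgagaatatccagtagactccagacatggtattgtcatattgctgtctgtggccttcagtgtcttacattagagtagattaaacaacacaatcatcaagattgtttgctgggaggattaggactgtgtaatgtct
The B6 window held 3 CG dinucleotides and 1 of its 6 reading frames had no stop codon over the 300 bases. The KI window held 0 of both. The peaks do not overlap.

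Of 21418 autosomal protein-coding genes, 1482 had at least 50% of their length in domains, a background of 6.92%. Gene length and the length rule are tied. Of genes of 50 to 100 kb, 31.2% were in domains, and the share was 1.59% for genes under 20 kb and 1.19% for genes of 300 kb or longer. Of the 4623 genes of 50 kb or longer, 1038 were in domains (22.5%). The 6 genes of 300 kb or longer that qualified were Dennd1a, Scaper, Stag1, Ranbp17, Ccdc46 and Nbas. Nbas, of 314.7 kb, had 93.9% of its length in domains.

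Genes were next counted by list, with the members of 50 kb or longer beside all members because of this tie. The lists were drawn up with earlier results of these data known, and the counts are a description. Chromatin regulators had 43 of 80 members in domains, and 40 of the 58 members of 50 kb or longer. Setd2, the enzyme that writes H3K36me3 in gene bodies, had 99.5% of its 86.0 kb in a domain. The H3K36 methyltransferase genes Ash1l and Nsd1 had 100% and 97.8%, the H3K4 methyltransferase gene Mll1 98.2% and the acetyltransferase gene Ep300 98.2%. In Mll3, another H3K4 methyltransferase gene, 52.4% lay in domains although B6 regions covered 97.8% and KI regions 86.7% of the gene. Tet1, a 5-methylcytosine oxidase gene, had 4.23% in B6 regions and 0% in KI regions, and the remodeler gene Chd7 had 12.4% and 4.80%.

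Of 71 genes of DNA damage and repair, 31 were in domains, and 23 of the 32 of 50 kb or longer. The kinase genes Atm (99.1%) and Atr (99%), the homologous recombination genes Brca1 (98.8%) and Brca2 (99.4%), the polymerase gene Polq (99.2%) and the Fanconi anaemia gene Fancd2 (99.5%) lay in domains almost from end to end. Prkdc, the DNA-dependent kinase gene of 204.4 kb, was just under the limit with 48.7%, although B6 and KI regions covered 94.4% and 93.6% of it.

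Ubiquitin ligases and deubiquitinases had 43 of 65 in domains, and 40 of 52 among those of 50 kb or longer. Usp34 (99.7% of 182.8 kb), the giant ligase gene Herc1 (98.9% of 158.3 kb) and Mycbp2 (93.3% of 233.4 kb) were among the longest. Ube3a, an imprinted ligase gene in neurons, had 75%. Nedd4l, of 330.1 kb, had 0% in domains and 10.8% in B6 and 5.0% in KI regions.

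Splicing and nuclear RNA genes had 24 of 65 in domains, and 18 of the 19 of 50 kb or longer. All 65 had at least 50% of their length in shared regions, against a background of 39.4% of genes. High shares were common to most lists. They were 97.2% for DNA damage and repair, 94.1% for meiotic, 93.8% for ubiquitin, 88.75% for chromatin and 82.7% for centrosome, cilium and motor genes. Long neuronal genes had 0%. Drosha and Dicer1, the enzymes of microRNA maturation, had 99.6% and 98.2% in domains, and the decay factor gene Upf2 had 99.5%.

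Centrosome, cilium and motor genes had 35 of 75 in domains, all of them among the 57 of 50 kb or longer. Cep290, a protein of the ciliary transition zone, had 100% of 85.4 kb, the pericentrin gene Pcnt 98.7%, and the dynein heavy chain gene Dync2h1 87.5% of 255.9 kb. Nin, the ninein gene of 100.5 kb, had 1.99% in B6 regions and 0% in KI regions.

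Of the meiotic chromosome and recombination genes, 15 of 51 were in domains, and 11 of the 20 of 50 kb or longer. Sycp2 (a synaptonemal complex protein, 99.4% of 62.4 kb), Hfm1 (a crossover helicase, 99%), Tex15 (98.8%), Ythdc2 (an RNA helicase of meiotic entry, 98.9%) and the germ cell helicase gene Ddx4 (100%) were in domains. Hormad1 and Msh4, a MutS homologue of crossover formation, had 100% although they are 28 kb and 49 kb long, because each shares its domain with a neighbour. Sycp1, of 117.6 kb, had 91.9% in regions of either strain but no segment of 50 kb. Mei4, a break formation gene of 342.3 kb, had 42.9% in B6 and 24.1% in KI regions, and none in domains.

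Long neuronal genes, listed as genes of another tissue, had 0 of 64 in domains. Their median length was 866.6 kb and 62 of them were 300 kb or longer, a length at which 1.19% of all genes were in domains, so the count is near that background. Their median coverage was 1.51% in B6 and 2.42% in KI regions. The labelled cell type was read from markers in the same way. All 12 meiotic germ cell markers had at least 50% of their length in regions of both strains, against 39.4% of all autosomal protein-coding genes. Of the 12, 5 (Hormad1, Ddx4, Sycp2, Mael and Tex14) had as much in domains, against 6.92% of all. Among other cell types, 1 of 6 spermatid, 0 of 9 Sertoli, 1 of 6 Leydig (Star) and 0 of 4 peritubular and vascular markers had 50% in regions of both strains. None of these 25 genes overlapped a domain, whereas 1800 of 21418 autosomal genes did. Their median lengths were 0.77, 13.1, 7.22 and 69.6 kb in this order. Of all genes under 20 kb, 242 of 12090 overlapped a domain, so the absence is not read as a result about these markers.

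**Figure D5:**
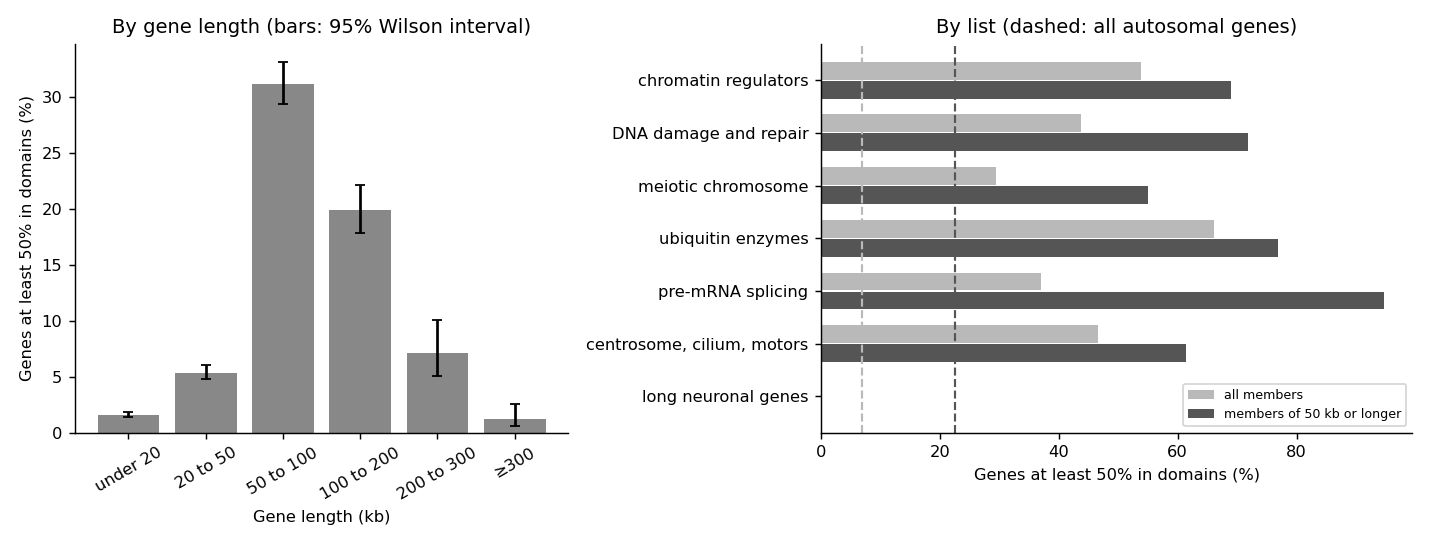
Left, percent of autosomal protein-coding genes that lie in domains over at least 50% of the gene, by gene length, with 95% Wilson intervals for counting error. Right, the same percent for 7 gene lists, over all members (light) and over members of 50 kb or longer (dark), with dashed lines at 6.92% and 22.5% for all autosomal genes of each kind. Splicing genes of 50 kb or longer reach 94.7%, and long neuronal genes are at 0, where all genes of 300 kb or longer are at 1.19% (left).

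Refined peaks were less dense in domains than in shorter shared segments. B6 had 1926 and KI 4286, which is 18.4 and 40.9 per Mb. The autosomes had 21.9 (B6) and 27.6 (KI) per Mb, so domains lay below this density in B6 and above it in KI. Over all shared segments the density rose as segments became shorter, to 315 (B6) and 405 (KI) per Mb in segments under 5 kb. The whole lists hold 58502 refined peaks for 54458 called regions in B6 and 72692 for 66566 in KI. Domains had 1926 refined peaks for 1947 called regions in B6 and 4286 for 3822 in KI. The median number of refined peaks per segment was 1 in every length class in B6. In KI it was 2 in the classes of 5 kb or longer and 1 under 5 kb. A density per Mb divides such numbers by segment length, which defines the classes. Called regions were not counted by segment length, so their part in the rise was not tested. The KI to B6 ratio of densities was 2.23 in domains and 1.79, 1.57 and 1.29 in segments of 20 to 50 kb, 5 to 20 kb and under 5 kb. In the 425 domains called as 1 region in both strains B6 had 449 refined peaks and KI had 475, or 14.9 and 15.7 per Mb. Refined peaks per called region in domains were 0.989 (B6) and 1.12 (KI). Domains picked for 1 call in each strain therefore have similar numbers largely by that choice. The part of called regions in the strain difference was not tested. KI had more refined peaks in 845 domains, B6 in 70, and the numbers were equal in 453.

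Few refined peaks were common to the strains. In domains 269 of 1926 B6 peaks (14.0%) overlapped a KI peak by at least 1 bp, and 270 of 4286 KI peaks (6.30%) overlapped a B6 peak. In segments under 5 kb these shares were 42.3% and 32.9%. Refined peaks were denser there, with 315 (B6) and 405 (KI) per Mb against 18.4 and 40.9 in domains. Overlap by position alone is more frequent where peaks are denser, and the part of density in this difference was not tested. The most refined peaks in B6 were in Lrrc9 (9), Mrps27 (7) and Lrrc28 (7). In KI they were in Ccdc46 (17), Mllt10 with Dnajc1 (14) and the autophagy gene Atg5 (14), which had 4, 2 and 1 in B6. KI peaks lay nearer the edges than B6 peaks. Of KI peaks 34%, and of B6 peaks 23.2%, fell within the outermost 10% of domain length on either side. The B6 region reached past the KI region at 1503 of 2736 edges and the reverse held at 364. The edges were thus more often ends of KI regions, and distance from them does not measure the strains alike.

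The sequence of domains was close to the autosomes in base composition. Their GC content was 41.7%, against 41.9% for the autosomes and 43.4% to 44.5% for shorter shared segments. The lowest GC content of a single domain was 32.8%, in Ube3a. Exons made up 8.90% of domain bases and 2.99% of autosomal bases, with 12.2% in segments of 20 to 50 kb. Domains were unevenly spread, with 7.84% of chromosome 11 and 7.10% of chromosome 9 in domains at one end and 2.58% of chromosome 3 at the other. Chromosome 7 had 2.77% in domains although its gene density (13.6 protein-coding genes per Mb) was like that of chromosome 11 (13.6).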

How the data were processed

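H3K36me3 ChIP-seq on MNase-digested chromatin of B6 and KI germ cells was analysed. The authors aligned reads to mm9 with BWA (version 1.2.3 in the submitters' processing notes), merged 2 replicates per strain and called peaks with ZINBA against input. The deposited files give positions of broad regions and of refined peaks in base pairs, with no count, score or signal. Broad regions start on multiples of 500 bp plus 1, so positions were counted from 1. Inputs have no list of their own here.

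Broad regions that overlapped or touched were merged per strain (B6 39620, KI 48863 merged regions) and intersected with pandas 2.3.3 and numpy 2.4.6 in Python 3.11.15. bedtools 2.31.1 gave the same 1368 domains, and the code was tested on simulated data with planted domains. Genes came from GENCODE vM1 on NCBIM37 (mm9), and 8 list members were matched by older symbols in RefSeq (GRCm38.p6), which otherwise gave only names and gene order. A refined peak was placed by its midpoint. A gene counted as in domains with at least 50% of its length in them. Sequence was read with pysam 0.24.0. Wilson intervals at 95% (scipy 1.17.1) cover counting error only. Named domains were the 15 longest, those next to the length limit, those without a gene, and those with most genes, refined peaks or edge difference, and from the lists members with at least 50% in domains, besides others named after their values were seen. The members and lists were chosen with earlier results of these data known. Alternatives were length minimums of 40 and 75 kb, merging across 1000 bp, single strains, and other gene and peak overlaps.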

Additional observations from a re-analysis of the deposited data

How the results depend on the processing

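Of 44 alternative values, 26 stayed near the reported ones (counts and lengths within 1.5 times, shares and densities inside their 95% counting interval), 18 moved further, and the KI to B6 ratio of refined peak density stayed above 1 wherever it was recomputed. With a minimum of 40 kb the refined density was 21.1 (B6) and 44.4 (KI) per Mb and their ratio 2.10. With 75 kb there were 526 domains of 53.9 Mb and 609 genes in domains, with densities of 14.3 and 35.3 per Mb and a ratio of 2.47. With regions up to 1000 bp apart merged, 95.6% of domains had at least 50% of their length in 1 gene, the densities were 25.8 and 60.4 per Mb, 18.8% of B6 refined peaks overlapped a KI peak, 15.6% of domains held a gene start and 62.5% of pairs in a domain were convergent, a share computed for this setting after the data were seen. B6 alone had 159 Mb in regions of 50 kb or longer. Requiring 50% of the shorter peak gave 10.7% of B6 peaks shared, and counting only starts at least 2000 bp inside both edges gave 6.80% of domains with a start. Merging bridges breaks of up to 1000 bp by construction. Whether segments admitted by a lower minimum hold relatively more called regions was not tested. No paired analysis was possible because each strain has 1 merged list. Leaving out a replicate could not be done for the same reason. The files give no read counts, so a true gap between called regions and a window of low coverage cannot be told apart.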

Other observations

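The sex chromosomes were outside the domain rule. On X, 37 of 1980 shared segments reached 50 kb, the longest over Huwe1, a large ubiquitin ligase gene (134.5 kb). The kinesin gene Kif4 had a segment of 101.5 kb. Tex11, an X-linked gene of meiotic synapsis and crossing over, had segments of 93.5 and 62 kb, the H3K9 demethylase gene Phf8 had 58.0 and 60.5 kb, and the chromatin remodeler gene Atrx had 86.5 kb. The cohesin subunit gene Stag2 had 77.5 kb and the H3K27 demethylase gene Kdm6a 51.5 kb. One X segment of 65.0 kb overlapped no protein-coding gene. On Y, 2 of 56 shared segments reached 50 kb, over the H3K4 demethylase gene Kdm5d (51.5 kb) and Uty (76.5 kb), the Y-linked relative of Kdm6a.

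Of annotated snoRNA genes 102 of 1458 (7.0%) lay wholly in domains, of snRNA genes 89 of 1331 (6.69%) and of miRNA genes 78 of 1468 (5.31%), whereas domains covered 4.23% of the autosomes. Genes this short fit inside introns, and most domain sequence was intronic, so the shares are given as counts only.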
